A study of Homo sapiens with 6 samples.

Results

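Interferon-stimulated and nucleic acid sensing genes were examined in 6 polyA RNA libraries of SiHa. This established cell line comes from a human squamous carcinoma of the cervix and is papillomavirus-positive. The set holds 46 genes chosen by symbol, out of a deposited table of 35544 rows. Each of the 46 symbols was found, on 45 rows, because IFITM1 and IFITM2 share a row. The table gives FPKM, that is, fragment counts adjusted for transcript length and sequencing depth. A row was tested if it reached FPKM of at least 1 in at least 3 libraries, which 35 rows with 36 of the genes did, and the other 10 genes are given by their levels alone. The vector group (3 libraries) was SiHa transfected with a vector plasmid, and the circ_0005358 group (3 libraries) was SiHa transfected with an hsa_circ_0005358 plasmid, which encodes a circular RNA, both collected 72 h after transfection. Both groups therefore received plasmid DNA, cells without plasmid were not analysed here, and the level of the circular RNA itself was not analysed here. Whether the numbered libraries of a group are separate cultures is not stated in the labels, so p-values reflect library-to-library spread alone, possibly technical.

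Interferons made by infected or stressed cells bind cell surface receptors, whose JAK kinases activate transcription factors of the STAT family. Complexes that hold STAT2 and IRF9 bind a promoter element, the interferon-stimulated response element, and switch on antiviral genes. Ahead of this step, cytosolic receptors such as RIG-I (encoded by DDX58) and MDA5 (encoded by IFIH1) detect foreign or misplaced RNA and start interferon production. Many of the sensors and transcription factors are themselves interferon-induced, and papillomavirus oncoproteins are known for blunting this pathway in cervical keratinocytes.

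With the circular RNA plasmid, 6 of the 35 tested rows fell and 2 rose. ISG15, a ubiquitin-like modifier, and HERC5, the ligase that attaches it, fell to 0.595 and 0.562 of their vector levels. The RNA sensor gene DDX58 fell to 0.6 of its vector level, and SP100, PLSCR1 and IFI6 also fell. TRIM14, an adaptor of antiviral signalling, rose 7.98-fold in mean FPKM, and IFI44L, an interferon-induced gene, rose 4.53-fold from a low level. Over all 10295 tested rows, 11.4% were called, with 4.96% lower and 6.41% higher, by the same criterion (limma, Benjamini-Hochberg adjusted p under 0.05 over all rows). The members' own shares were 17.1% lower and 5.71% higher, so the share that rose was close to that of all rows. The median log2 fold change was -0.14 over the tested member rows and 0.02 over all tested rows. These counts describe the rows that passed the filter. IFI44L reached FPKM of 1 in the circ_0005358 group alone, and MX1 and SP110 in the vector group alone, so for these 3 rows the filter itself favoured a difference. Without them 6 of 32 rows fell and 1 rose.

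The promoters of the members that changed are shown because the response element described above lies in the promoters of many interferon-stimulated genes. The windows run from 250 bases before to 50 bases after the RefSeq transcript start (GRCh38.p14, first window listed for a gene) and were found for 38 of the 46 genes. Capitals mark each match to the core of the interferon-stimulated response element, that is, GAAA, any 2 bases and GAAA again, or TTTC, any 2 bases and TTTC on the other strand, with overlapping matches kept. The shown windows are those of members that changed and hold a match.
ISG15, chr1:1013247-1013546, plus strand: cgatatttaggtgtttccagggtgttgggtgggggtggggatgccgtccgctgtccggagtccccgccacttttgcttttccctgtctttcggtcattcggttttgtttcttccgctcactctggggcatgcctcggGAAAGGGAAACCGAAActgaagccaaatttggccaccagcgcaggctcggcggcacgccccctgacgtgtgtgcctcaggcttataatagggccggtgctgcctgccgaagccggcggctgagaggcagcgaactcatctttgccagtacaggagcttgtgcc
HERC5, chr4:88456869-88457168, plus strand: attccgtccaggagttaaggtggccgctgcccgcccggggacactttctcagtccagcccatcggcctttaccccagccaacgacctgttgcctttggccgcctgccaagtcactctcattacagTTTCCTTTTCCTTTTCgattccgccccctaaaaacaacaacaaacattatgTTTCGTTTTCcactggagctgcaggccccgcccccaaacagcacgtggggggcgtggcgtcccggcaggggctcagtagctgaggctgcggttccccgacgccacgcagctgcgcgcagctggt
IFI6, chr1:27672143-27672442, minus strand: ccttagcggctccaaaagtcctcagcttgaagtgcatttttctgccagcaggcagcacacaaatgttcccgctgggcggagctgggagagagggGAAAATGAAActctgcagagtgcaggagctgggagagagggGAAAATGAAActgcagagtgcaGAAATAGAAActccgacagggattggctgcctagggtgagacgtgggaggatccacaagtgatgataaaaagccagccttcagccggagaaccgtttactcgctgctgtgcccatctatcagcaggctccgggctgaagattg
PLSCR1, chr3:146544558-146544857, minus strand: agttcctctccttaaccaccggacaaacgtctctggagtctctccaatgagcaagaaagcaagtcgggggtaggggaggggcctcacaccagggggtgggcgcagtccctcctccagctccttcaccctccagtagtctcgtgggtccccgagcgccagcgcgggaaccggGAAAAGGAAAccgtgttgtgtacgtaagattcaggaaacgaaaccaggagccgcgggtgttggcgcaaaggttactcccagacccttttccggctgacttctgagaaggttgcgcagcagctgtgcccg
IFI44L, chr1:78620198-78620497, plus strand: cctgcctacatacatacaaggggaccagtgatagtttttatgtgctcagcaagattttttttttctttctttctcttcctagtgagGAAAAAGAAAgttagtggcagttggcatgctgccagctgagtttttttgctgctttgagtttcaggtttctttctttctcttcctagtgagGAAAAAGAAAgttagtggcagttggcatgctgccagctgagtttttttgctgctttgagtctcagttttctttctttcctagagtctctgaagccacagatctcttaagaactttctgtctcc
TRIM14, chr9:98119173-98119472, minus strand: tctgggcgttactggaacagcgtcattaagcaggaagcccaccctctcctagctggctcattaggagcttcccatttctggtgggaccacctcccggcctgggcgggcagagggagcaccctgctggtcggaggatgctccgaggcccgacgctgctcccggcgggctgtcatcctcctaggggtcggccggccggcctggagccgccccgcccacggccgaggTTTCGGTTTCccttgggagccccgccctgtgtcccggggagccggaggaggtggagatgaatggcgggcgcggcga
Of the 38 members with a window, 22 (57.9%) held the core, against 3.65% of all 27305 RefSeq windows of the same length. The list was chosen as interferon-stimulated and sensing genes, so this difference is not a result of these libraries. Among the members that fell, 4 of 6 held it, and DDX58 and SP100 did not. Both members that rose held it, as did 11 of 23 members that were tested and not called and 5 of 7 untested members. The core was thus found in members that fell, that rose and that did not pass the test. The gamma-activated site TTCNNNGAA, which reads the same on both strands and was searched in the same windows, was found in 9 of the 38 members and in 7.88% of all windows. With every listed window of a gene counted, 24 of the 38 members and 4.38% of all RefSeq genes held the response element core. In ISG15 the matches overlap in part, and the first starts at -113, counted in bases from the transcript start. In TRIM14 the match starts at -26.

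**Figure D1:**
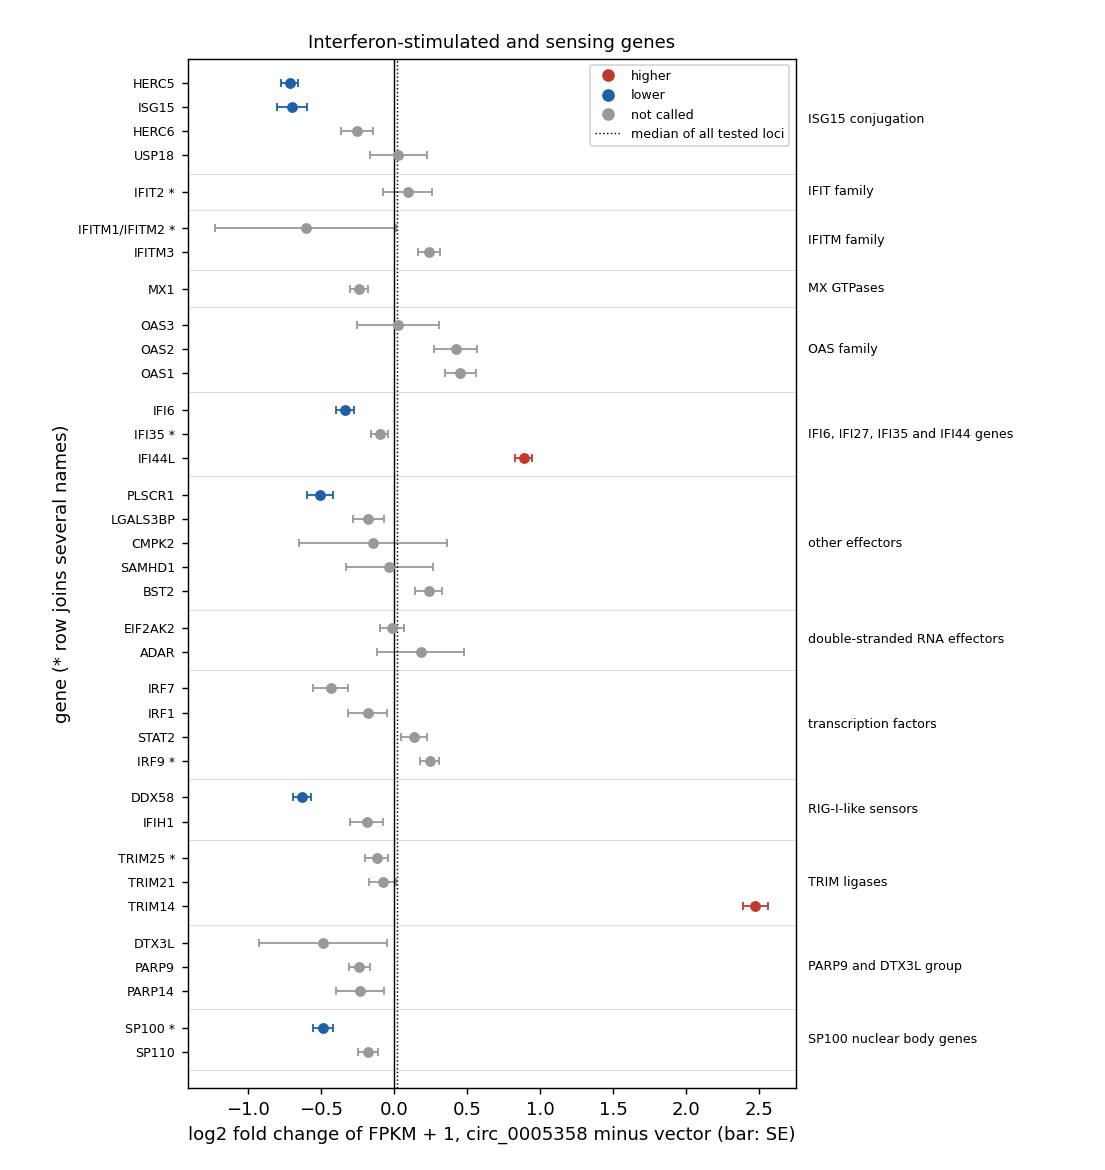
Log2 fold change of FPKM + 1 (circ_0005358 minus vector, x axis) for the 35 tested rows of interferon-stimulated and sensing genes (y axis), grouped by role. Points are estimates, bars are standard errors and colours mark the call; TRIM14 at 2.47 lies far from the other rows, which run from -0.72 for HERC5 to 0.89 for IFI44L.

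The sensors of cytosolic RNA came out unequally. DDX58 encodes RIG-I, which detects RNA with a triphosphate end, and lies at chr9:32455705-32526324 (minus strand, GENCODE 29, GRCh38). It stood at 7.34, 8.03 and 7.82 FPKM in the vector libraries, against 4.77, 4.43 and 4.70 FPKM with circ_0005358. All 3 vector libraries lay above all 3 libraries with the circular RNA plasmid, and the log2 fold change of FPKM + 1 was -0.63 (SE 0.0612, limma adjusted p = 0.00393). Over 18 alternative settings the adjusted p of DDX58 ran from 0.00346 to 0.0708, the highest with vector replicate 3 and circ_0005358 replicate 2 both removed, and the DDX58 call was lost in 2 of the 18. IFIH1, which encodes MDA5, a sensor of long double-stranded RNA, stood at 3.03, 3.99 and 3.91 FPKM against 3.35, 2.80 and 3.02 FPKM. Its groups overlapped, and the log2 difference was -0.19 (95% interval -0.46 to 0.09, limma adjusted p = 0.339), and the difference between DDX58 and IFIH1 was not tested. DHX58, the regulatory member LGP2 of the same helicase family, ranged from 0.584 to 0.946 FPKM and lay below the filter.

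The TRIM proteins of this set act around these sensors. TRIM14, a mitochondrial adaptor in RIG-I signalling, lies at chr9:98069275-98119212 (minus strand, GENCODE 29, GRCh38). It stood at 1.56, 1.98 and 2.04 FPKM in the vector libraries, against 14.5, 15.5 and 14.4 FPKM with circ_0005358. The groups were far apart and each was narrow, and the log2 difference was 2.47 (SE 0.0871, limma adjusted p = 0.000233). The TRIM14 call was kept in all 18 alternatives. Of the 3 nearest protein-coding genes on each side, chosen after their values were seen, ANP32B and CORO2A also rose, ANP32B from 56.1 to 81.2 FPKM and CORO2A from 1.04 to 2.04 FPKM (limma adjusted p = 0.00503 for both). NANS and TBC1D2 had log2 fold changes of 0.22 and 0.36 and did not pass (limma adjusted p = 0.418 and 0.146), and HEMGN and GABBR2 lay below the filter. Of all tested rows, 6.41% were higher, and whether genes near TRIM14 moved with it was not tested. TRIM25, which modifies RIG-I with ubiquitin, and TRIM21, a cytosolic antibody receptor, had log2 fold changes of -0.12 and -0.08 (limma adjusted p = 0.397 and 0.636). The intervals of TRIM25 (-0.32 to 0.08) and TRIM21 (-0.31 to 0.15) leave out a change of the size seen for TRIM14. TRIM25 stands on a row with the microRNA gene MIR3614.

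Among the genes of ISG15 conjugation, 2 of 4 fell, beside 4.96% of all tested rows. ISG15, at chr1:1001138-1014540 (plus strand, GENCODE 29, GRCh38), stood at 15.2, 17.7 and 16.5 FPKM with vector. With circ_0005358 it stood at 8.51, 10.6 and 10.3 FPKM, all below the vector libraries (log2 fold change -0.70, SE 0.103, limma adjusted p = 0.014). ISG15 no longer passed once vector replicate 2 (adjusted p = 0.0588) or vector replicate 3 (0.0556) was removed, or vector replicate 3 with circ_0005358 replicate 2 (0.107), and 0.00975 was the lowest of its alternatives. HERC5, at chr4:88457117-88506163 (plus strand, GENCODE 29, GRCh38), stood at 8.60, 8.44 and 7.98 FPKM against 4.57, 4.63 and 4.87 FPKM. Its groups were well separated, and the log2 difference was -0.72 (SE 0.0578, limma adjusted p = 0.0021). The HERC5 call was kept in all 18 alternatives, up to an adjusted p of 0.0496. HERC6, its neighbour and paralog, stood at 5.19, 4.15 and 4.19 FPKM against 3.65, 3.20 and 4.02 FPKM and did not pass (log2 fold change -0.25, limma adjusted p = 0.212). USP18, the protease that removes ISG15 and restrains the interferon receptor, stood at 3.29, 6.04 and 5.41 FPKM against 4.93, 5.09 and 4.70 FPKM. The vector libraries of USP18 enclosed the others, and its 95% interval ran from -0.46 to 0.52 (limma adjusted p = 0.937).

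**Figure D2:**
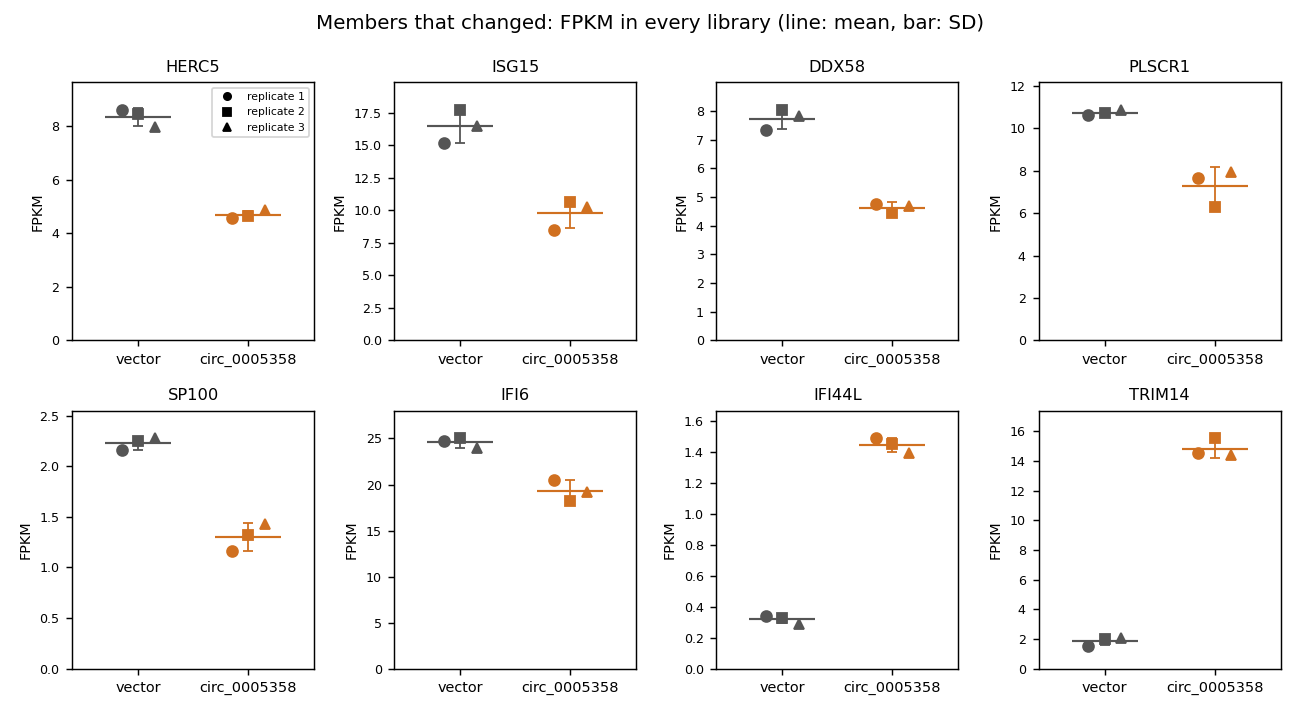
FPKM (y axis, from 0) in each of the 3 vector and 3 circ_0005358 libraries for the 8 members that changed; symbols mark the replicate number, lines the mean and bars the SD. In every panel the libraries of one group lie entirely above those of the other, with TRIM14 between 14.4 and 15.5 FPKM against at most 2.04 FPKM.

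Of the 3 tested rows of genes named IFI, IFI6 fell and IFI44L rose, beside 4.96% lower and 6.41% higher of all tested rows. IFI6, a mitochondrial and endoplasmic reticulum protein gene at chr1:27666061-27672218 (minus strand, GENCODE 29, GRCh38), stood at 24.7, 25.0 and 23.9 FPKM in the vector libraries, against 20.5, 18.2 and 19.1 FPKM with circ_0005358. The difference was small and the groups did not overlap (log2 fold change -0.33, SE 0.0613, limma adjusted p = 0.0274). IFI6 lost its call in 8 of 18 alternatives, with adjusted p from 0.0201 to 0.122 over all of them, among them the removal of any vector library or of circ_0005358 replicate 2 or 3 (0.0603 to 0.0995). IFI44L, at chr1:78619922-78646145 (plus strand, GENCODE 29, GRCh38), stood at 0.342, 0.326 and 0.289 FPKM against 1.49, 1.45 and 1.39 FPKM. The 3 libraries with the circular RNA plasmid were all above 1 FPKM and no vector library exceeded 0.342 FPKM (log2 fold change 0.89, SE 0.0582, limma adjusted p = 0.00115). The IFI44L call was kept in the 13 alternatives that tested this row. It passed the filter through the circ_0005358 group alone, so removing any library of that group left it untested, as did the filter of 5 FPKM. Whether the IFI44L call depends on a single circ_0005358 library was therefore not tested. The neighbouring IFI44 ranged from 0.31 to 0.478 FPKM with vector and from 0.489 to 0.554 FPKM in the circ_0005358 libraries, under the filter. IFI35, which shares its row with the ribosomal protein gene RPL27, gave a log2 difference of -0.10 (limma adjusted p = 0.347), and the level of IFI35 alone cannot be read from it. IFI27 did not exceed 0.0353 FPKM in any library.

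The effector genes outside these families gave 1 call in 5 tested rows (20%, beside 11.4% of all tested rows). PLSCR1, a phospholipid scramblase gene at chr3:146515180-146544864 (minus strand, GENCODE 29, GRCh38), stood at 10.6, 10.7 and 10.9 FPKM in the vector libraries, against 7.66, 6.28 and 7.93 FPKM with circ_0005358. The vector libraries lay within a narrow range above the others (log2 fold change -0.51, SE 0.0917, limma adjusted p = 0.0264). PLSCR1 lost its call in 8 of 18 alternatives, with adjusted p from 0.0225 to 0.0984 over all of them, among them the removal of any vector library or of circ_0005358 replicate 1 or 3 (0.0502 to 0.0908). BST2, which encodes tetherin, a protein that holds budding virus at the cell surface, was the most abundant member. It stood at 170.2, 142 and 139 FPKM against 179.6, 168 and 184 FPKM, with groups that met at vector replicate 1 (log2 fold change 0.24, limma adjusted p = 0.174). LGALS3BP, a secreted glycoprotein gene, did not pass (log2 fold change -0.18, limma adjusted p = 0.346), and RSAD2, which encodes viperin, and XAF1, a pro-apoptotic gene, stayed at or below 0.23 and 0.81 FPKM.

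SP100, a component of nuclear bodies that restrain viral genomes, stood at 2.16, 2.25 and 2.28 FPKM in the vector libraries, against 1.16, 1.32 and 1.43 FPKM with circ_0005358. Its groups did not overlap (log2 fold change -0.49, SE 0.0691, limma adjusted p = 0.0124). The SP100 row also carries the pseudogene name HMGB1P3. Removing vector replicate 2 ended the SP100 call (adjusted p = 0.0583), as did 3 of its other alternatives, with adjusted p from 0.00963 to 0.115 over all 16. SP100 lies at chr2:230415942-230544090 (plus strand, GENCODE 29, GRCh38). The next protein-coding genes downstream, CAB39 and ITM2C, chosen after their values were seen, fell from 27.7 to 18.0 FPKM and from 27.7 to 17.3 FPKM (limma adjusted p = 0.0106 and 0.00229), while SP140L on the other side did not pass (limma adjusted p = 0.736). Neighbours of other members that changed moved in either direction. Of all tested rows, 4.96% were lower and 6.41% higher, and whether neighbours moved together was not tested. Beside IFI44L, which rose, ADGRL2 fell from 5.17 to 0.383 FPKM and the row of DNAJB4 and GIPC2 fell from 1.83 to 1.22 FPKM (limma adjusted p = 0.000321 and 0.0233). Beside DDX58, which fell, ACO1 rose from 15.1 to 22.0 FPKM (limma adjusted p = 0.00463). PLOD2 near PLSCR1 and WASF2 near IFI6 fell with those members (limma adjusted p = 0.0021 and 0.0482), and no neighbour of ISG15 or HERC5 passed. SP110, a related nuclear body gene nearby, stood at 1.01, 1.21 and 1.09 FPKM against 0.791, 0.901 and 0.885 FPKM and did not pass (limma adjusted p = 0.165).

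The antiviral oligoadenylate synthetase, MX, IFITM and IFIT families gave no calls in 3, 1, 2 and 1 tested rows. Of all tested rows, 11.4% were called. The synthetases make the messenger that activates RNase L. OAS1 stood at 0.951, 1.24 and 1.31 FPKM in the vector libraries, against 1.82, 1.79 and 2.30 FPKM with circ_0005358, and OAS2 at 2.51, 2.77 and 2.21 FPKM against 2.82, 4.21 and 4.11 FPKM. Neither pair of groups overlapped, and neither gene passed (log2 fold changes 0.45 and 0.42, limma adjusted p = 0.0533 and 0.136). OAS1 passed with library weights and with quantile normalization (adjusted p = 0.042 and 0.0452) and OAS2 without circ_0005358 replicate 1 (adjusted p = 0.0419). OAS3 gave a log2 difference of 0.03 with a 95% interval from -0.68 to 0.73, since circ_0005358 replicate 3 stood at 7.72 FPKM and the other 2 libraries of that group at 15.2 and 16.9 FPKM. OASL did not exceed 0.403 FPKM.

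MX1, a dynamin-like GTPase gene that traps viral nucleocapsids, stood at 1.06, 1.04 and 1.14 FPKM against 0.708, 0.756 and 0.806 FPKM. The vector libraries were just inside the filter's 1 FPKM and the others outside it, and the log2 fold change of -0.24 did not pass (limma adjusted p = 0.0641). MX2 ranged from 0.386 to 0.542 FPKM. Of the members below 1 FPKM in every library, DHX58 and XAF1 came closest to the filter, with highest values of 0.946 and 0.81 FPKM. IFITM3, which blocks viral fusion in endosomes, stood at 134, 119.9 and 124 FPKM against 142, 162 and 144 FPKM. Its groups did not overlap, and it did not pass (log2 fold change 0.24, 95% interval 0.05 to 0.43, limma adjusted p = 0.116). IFIT2, whose product binds viral RNA and whose row also carries AL353751.1, did not pass (log2 fold change 0.09, limma adjusted p = 0.768).

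Over the tested member rows, the groups did not overlap in 17 of 35, 6 higher and 11 lower. The background was 35.8% of all tested rows, with 19.8% higher and 15.9% lower.

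Several members split within a group rather than between groups. IFIT5, whose row holds a single annotated transcript, stood at 7.29 and 6.85 FPKM in vector replicates 1 and 2 and between 0.334 and 0.432 FPKM in the other 4 libraries. Since only 2 libraries reached 1 FPKM, IFIT5 was not tested. IFIT3 stood at 4.22 FPKM in vector replicate 2 and 3.65 FPKM in circ_0005358 replicate 1 and between 0.1 and 0.346 FPKM in the other 4 libraries. IFIT1 stood at 2.14 FPKM in circ_0005358 replicate 3 and between 0.0319 and 0.0942 FPKM in the other 5 libraries. These neighbouring paralogs on chromosome 10 were thus high in different libraries. Whether the counting split reads between the paralogs was not tested. The summed level of the 4 IFIT genes was not steady either, from 1.59 to 12.8 FPKM with vector and from 2.32 to 5.36 FPKM with circ_0005358.

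The row of IFITM1 and IFITM2, whose annotated spans overlap on chromosome 11, stood at 32.4 FPKM in vector replicate 1 and between 4.74 and 10.6 FPKM in the other 5 libraries (log2 fold change -0.60, 95% interval -2.15 to 0.94, limma adjusted p = 0.59). DTX3L, a ubiquitin ligase gene, stood at 17.8, 17.3 and 16.6 FPKM in vector replicates 2 and 3 and circ_0005358 replicate 3 and between 6.53 and 8.03 FPKM in the other 3 libraries. Its partner PARP9, read from the opposite strand at the same start region on chromosome 3, showed no such split, at 7.38, 7.64 and 7.01 FPKM against 6.20, 5.56 and 6.47 FPKM (log2 fold change -0.24, limma adjusted p = 0.102). PARP14, a further ADP-ribosyltransferase gene of that region, stood at 10.5, 16.4 and 15.5 FPKM with vector and between 11.6 and 11.7 FPKM with circ_0005358 (limma adjusted p = 0.432). The PARP14 groups overlapped through vector replicate 1, and without that library PARP14 passed (log2 fold change -0.42, adjusted p = 0.0386).

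CMPK2, a mitochondrial nucleotide kinase gene, stood at 6.38 FPKM in vector replicate 3 and 6.65 FPKM in circ_0005358 replicate 2 and between 1.94 and 3.28 FPKM elsewhere. SAMHD1, which depletes nucleotides needed by viruses, ranged from 8.18 to 14.6 FPKM with vector and from 6.82 to 12.2 FPKM with circ_0005358. Of the 35 tested member rows, 5 (14.3%) had at least a 2-fold range within a group, beside 19.2% of all tested rows. Such a spread was thus not more frequent among the members. These were IFIT2, the IFITM1 and IFITM2 row, OAS3, CMPK2 and DTX3L.

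**Figure D3:**
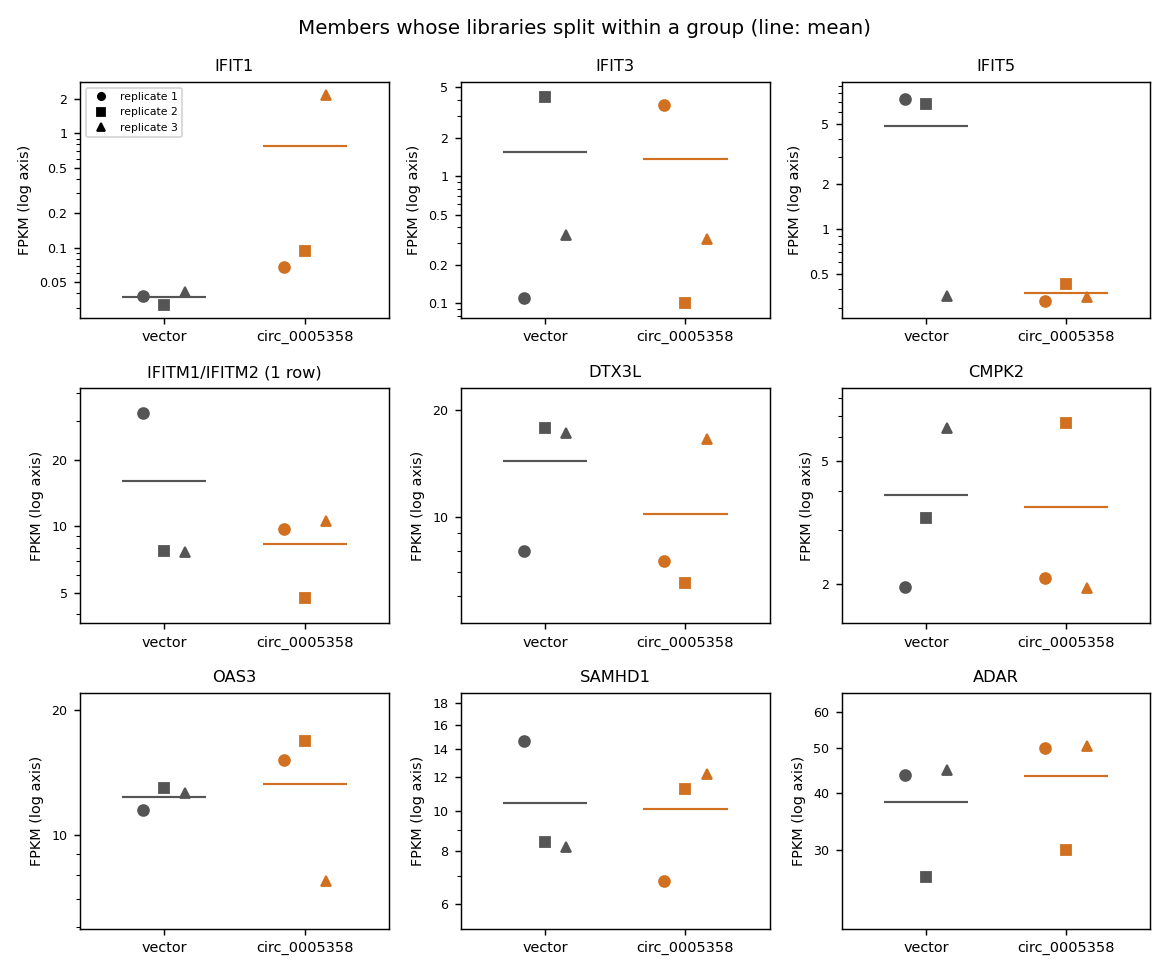
FPKM (y axis, logarithmic) in each library for 9 selected rows with a spread within a group. For SAMHD1 and ADAR this spread was under 2-fold. Symbols mark the replicate number and lines the mean. High libraries fall in both groups for IFIT3, DTX3L and CMPK2, and ADAR is lowest in replicate 2 of both groups.

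The effectors that bind double-stranded RNA did not pass. ADAR, which edits adenosine to inosine in such RNA, stood at 43.6, 26.2 and 44.8 FPKM in the vector libraries, against 49.97, 29.9 and 50.7 FPKM with circ_0005358. Replicate 2 was the lowest in both groups, and the 95% interval of the log2 fold change ran from -0.56 to 0.92 (limma adjusted p = 0.742). EIF2AK2, which encodes the kinase PKR that halts translation and is known to bind circular RNAs, stood at 17.5, 14.9 and 15.5 FPKM against 14.7, 16.1 and 16.6 FPKM. The groups overlapped, and the log2 difference was -0.01 with a 95% interval from -0.22 to 0.19 (limma adjusted p = 0.938).

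The transcription factors of the response did not pass either. STAT2 stood at 6.72, 7.27 and 7.95 FPKM in the vector libraries, against 7.79, 8.9997 and 7.66 FPKM with circ_0005358 (log2 fold change 0.14, 95% interval -0.09 to 0.36, limma adjusted p = 0.393). IRF1, an early activator, overlapped between groups (log2 fold change -0.18, limma adjusted p = 0.456). IRF7, which amplifies interferon production, stood at 1.72, 1.48 and 2.17 FPKM against 1.16, 1.16 and 0.861 FPKM, without overlap and without passing (log2 fold change -0.43, limma adjusted p = 0.0833). IRF9 stands on a row with RNF31 and AL136295.5, at 3.28, 3.43 and 3.72 FPKM against 4.10, 4.51 and 4.28 FPKM. That row did not overlap between groups and did not pass (log2 fold change 0.24, limma adjusted p = 0.0829), and the level of IRF9 alone cannot be read from it.

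The wider pathway was followed in 96 further genes on 95 rows, of which 74 rows were tested, 5 rose and 4 fell. The shares, 6.76% higher and 5.41% lower, were close to the 6.41% and 4.96% of all tested rows. None of the 10 interferon genes listed (IFNA1, IFNA2, IFNB1, IFNE, IFNG, IFNK, IFNL1, IFNL2, IFNL3 and IFNW1) reached the filter, and the highest value was 0.498 FPKM, for IFNL1 in vector replicate 3. None of 5 receptor rows passed. IFNGR1, the most abundant of them, ranged from 24.4 to 36.1 FPKM with vector and from 16.1 to 34.4 FPKM with circ_0005358, and IFNGR2 averaged 15.6 and 19.9 FPKM (limma adjusted p = 0.719 and 0.168). IFNGR2 passed without vector replicate 3. None of 4 JAK and STAT rows passed, with JAK1 and STAT3 the most abundant at vector means of 58.3 and 22.7 FPKM, and none of 6 negative regulators passed, with PTPN11 and PTPN1 the most abundant at 34.0 and 27.5 FPKM.

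Of 21 tested adaptors, kinases and further sensors, 1 rose and 1 fell (4.76% in each direction, beside 6.41% higher and 4.96% lower of all tested rows). RNF135, the Riplet ligase that activates RIG-I, stood at 2.91, 3.14 and 3.30 FPKM in the vector libraries, against 1.48, 1.75 and 1.04 FPKM with circ_0005358. All vector libraries were higher (log2 fold change -0.77, limma adjusted p = 0.018), and the call was lost in 7 of 17 alternatives (adjusted p from 0.0131 to 0.0928 over all of them), including the removal of any vector library or of circ_0005358 replicate 1 (0.0561 to 0.0715). ZC3HAV1, the zinc finger antiviral protein gene, rose from 18.3 ± 0.695 FPKM with vector to 22.0 ± 0.337 FPKM with the circular RNA plasmid (SD, n = 3; log2 difference 0.26, limma adjusted p = 0.0359), a call lost without any 1 of the 6 libraries (adjusted p from 0.0697 to 0.116). IFI16, a DNA sensor gene and the most abundant of this list, stood between 22.4 and 24.9 FPKM with vector and between 20.1 and 21.0 FPKM with circ_0005358 and did not pass (limma adjusted p = 0.0984). Of 11 proteins that bind double-stranded RNA, ADARB1, an editing enzyme related to ADAR, rose from 6.35 to 8.36 FPKM (limma adjusted p = 0.024). This was 9.09% of the list, beside 6.41% higher of all tested rows. ADARB1 did not pass once vector replicate 1, vector replicate 2 or any circ_0005358 library was removed (adjusted p from 0.0549 to 0.0918). The abundant ILF2 and DHX9 did not pass, with vector means of 92.1 and 85.7 FPKM.

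Among 27 tested rows of further interferon-stimulated genes, 3 rose and 3 fell (11.1% in each direction, beside 6.41% higher and 4.96% lower of all tested rows). TRIM22, an antiviral ligase gene whose row also carries OR56B1, stood at 4.74, 4.47 and 4.42 FPKM in the vector libraries, against 1.24, 1.19 and 1.18 FPKM with circ_0005358. The TRIM22 groups were narrow and far apart (log2 fold change -1.33, limma adjusted p = 0.000437). GBP3, a guanylate-binding protein gene whose row also carries Y_RNA, fell from 14.9 to 10.6 FPKM (limma adjusted p = 0.0377), and DDX60, a helicase gene linked to RIG-I, fell from 3.30 to 2.23 FPKM (limma adjusted p = 0.0368). NUB1, which lowers the levels of ubiquitin-like modifiers, rose from 27.8 to 57.1 FPKM (limma adjusted p = 0.000904). LY6E, a surface protein gene, rose from 48.6 to 91.4 FPKM (limma adjusted p = 0.00778, and 0.107 with vector replicate 3 and circ_0005358 replicate 2 both removed), and TDRD7, a gene of RNA granules, rose from 7.33 to 9.16 FPKM (limma adjusted p = 0.0406). The GBP3 call was lost without any 1 library except vector replicate 2 (adjusted p from 0.0962 to 0.112), and the DDX60 and TDRD7 calls were lost without any 1 of the 6 libraries (adjusted p from 0.0703 to 0.125 and from 0.0803 to 0.125).

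**Figure D4:**
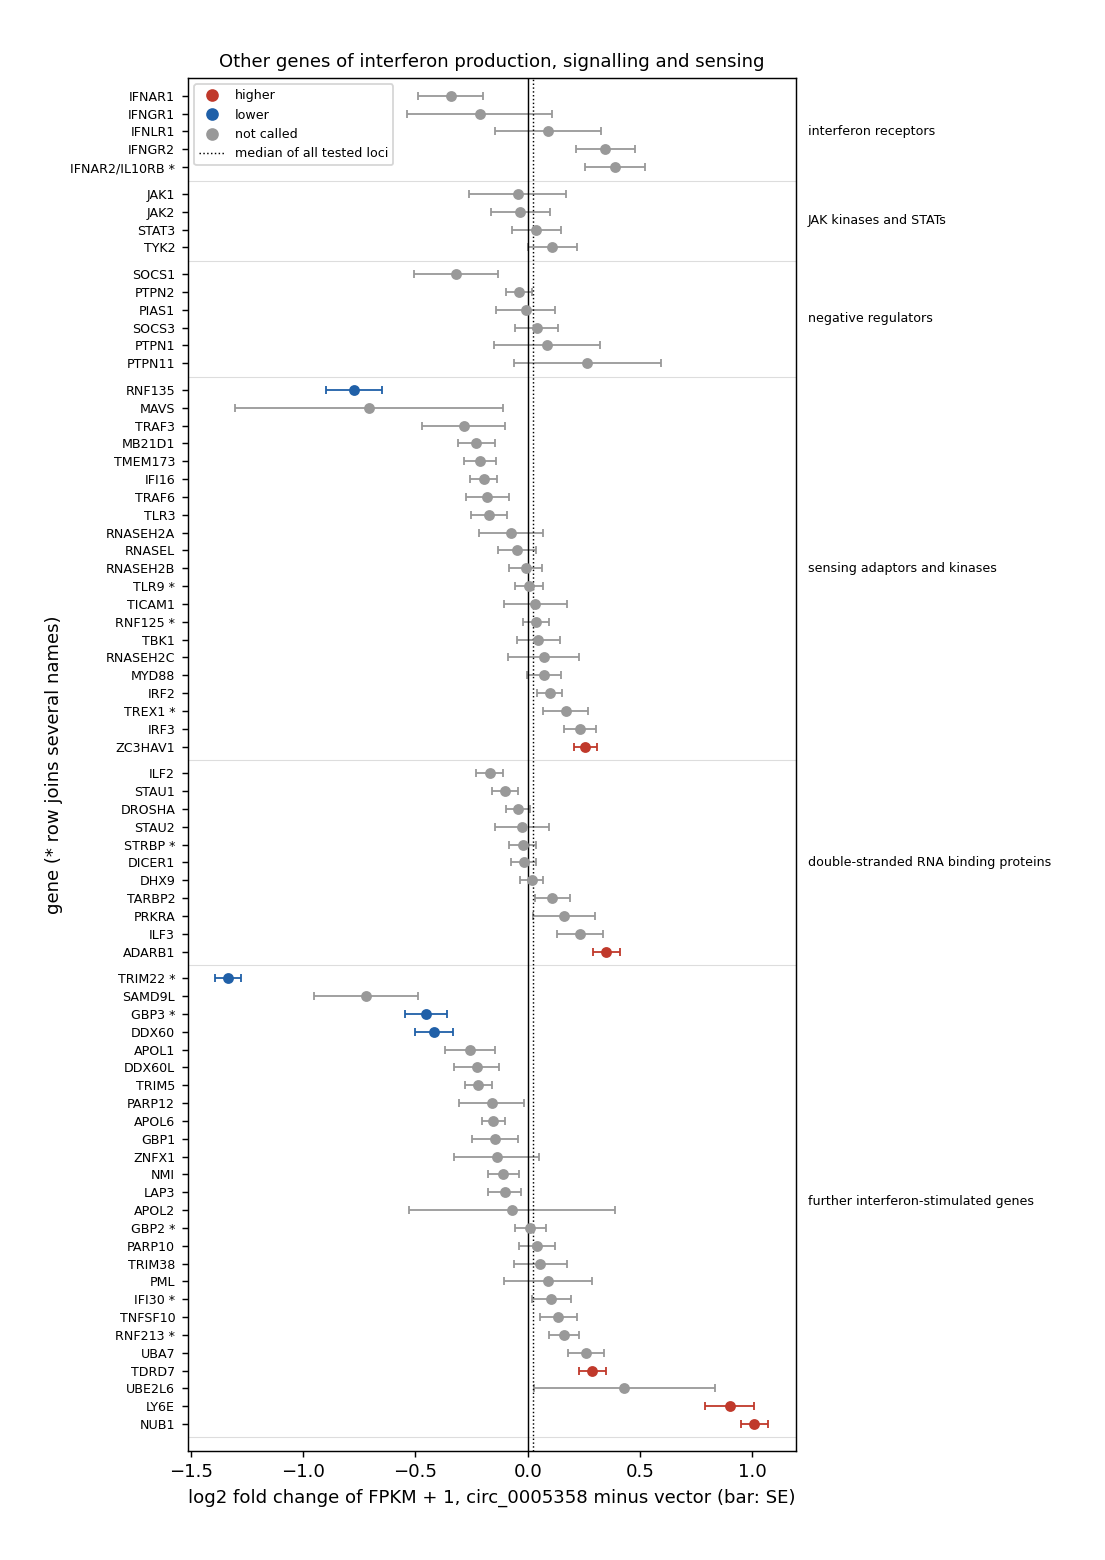
Log2 fold change of FPKM + 1 (circ_0005358 minus vector, x axis) for tested rows of other genes of interferon production, signalling and sensing (y axis), grouped by role, with standard errors as bars. TRIM22 at -1.33 and NUB1 at 1.01 mark the ends of the range, and rows of interferon receptors, of JAK kinases and STATs and of negative regulators have no coloured points.

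The libraries listed 23227 to 27803 rows above 0, the highest in vector replicate 3, and their implied depths lay between 71.1% (circ_0005358 replicate 2) and 100% of the deepest library. Among markers of SiHa, KRT7, KRT8, KRT17 and KRT18 were at 74.4 FPKM or more in every library and CDKN2A at 13.98 FPKM or more, while TP63 did not exceed 0.254 FPKM. KRT14 ranged from 33.6 to 48.2 FPKM with vector and from 5.88 to 16.9 FPKM with circ_0005358. The row of KRT5 and KRT6A ranged from 8.61 to 11.7 FPKM with vector and from 0.97 to 1.31 FPKM with circ_0005358. EPCAM ranged from 2.34 to 2.52 FPKM with vector and from 1.04 to 1.68 FPKM with circ_0005358. Of 8 tested markers of the line, 7 fell with circ_0005358 (87.5%, beside 4.96% lower of all tested rows). EPCAM was close to the threshold (limma adjusted p = 0.0469). The summed level of the 9 listed markers went from 1318 to 1395 FPKM in the vector libraries to 637 to 726 FPKM. Of 8 leukocyte markers, PTPRC did not exceed 0.0605 FPKM. CD14 reached 16.2 FPKM and CD68 shares its row with EIF4A1, so the list summed to 65.5 to 68.6 FPKM with vector and 52.6 to 69.7 FPKM with circ_0005358. Plasmacytoid dendritic cell markers summed to at most 0.899 FPKM in any library and endothelial markers to at most 0.599 FPKM. Fibroblast markers summed to 6.96 to 10.3 FPKM and 1.83 to 2.33 FPKM, which was mostly LUM, and the part of these markers in the results was not tested. In bulk libraries fewer cells of a type and less RNA per cell cannot be told apart.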

How the data were processed

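Gene expression was measured in 3 vector and 3 circ_0005358 libraries. The authors deposited FPKM values for 35544 rows, of which 2456 were 0 throughout. Reads went through Trimmomatic and HISAT2 on hg19, per the submitters' processing notes. Tool versions, the annotation and the FPKM program: not given in the sources used here. Assembled identifiers name 16797 rows and 1186 rows join several genes, so fragments of neighbours cannot always be separated. A member took the row carrying its symbol (the highest mean if several). Rows at 1 FPKM or more in 3 or more libraries were tested with two-sided limma 3.58.1 (R 4.3.3, variance trend) on log2(FPKM + 1), Benjamini-Hochberg adjusted over all 10295 tested rows, threshold 0.05, after checking on simulated data. Fold changes on this scale understate changes of low genes. Depth relative to the deepest library came from the value of 1 fragment on rows with 1 transcript of known length; it gives no counts, and no counting interval was drawn. Coordinates are from GENCODE 29 and promoters from RefSeq on GRCh38, not from the build of the alignment. All 46 members were accounted for; of the pathway lists, genes past the threshold and the 2 most abundant tested genes of a list are named, except 1 gene that is not reported here. Members, lists and tests were chosen with earlier results of these data known. The 18 alternatives were other pseudocounts (0.1, 0.5), filters, scalings, variance models, weights, a replicate block, libraries left out and rows with 1 name only.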

Additional observations from a re-analysis of the deposited data

How the results depend on the processing

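Counts of calls depended on the setting more than directions did. Results under an alternative were counted for the 35 tested member rows and the 9 pathway genes with a call. Of these results, 653 kept direction and side of the threshold and 79 lost a call. A further 4 gained one and 19, all of genes without a call, changed sign. The 27 member rows without a call had none to lose. Pathway genes without a call were left out of this count, and among them TRIM5 passed with quantile normalization and IFNGR2 without vector replicate 3. With all 6 libraries, 1171 rows changed, of them 8 members (2 higher, 6 lower) and 9 pathway genes (5 higher, 4 lower). With no filter on low values, which tests more rows, 591 rows changed, with 3 members lower and 2 pathway genes higher and 1 lower. With FPKM of at least 5, 1 member was higher and 1 pathway gene lower, and IFI44L, SP100, RNF135, TRIM22 and DDX60 were not tested. Rescaling to the same FPKM sum gave 3 pathway genes higher. Rows with a single gene name gave 2 lower, and there the joined rows of TRIM22 and GBP3 were not tested. Without vector replicate 3 and circ_0005358 replicate 2 together, 198 rows changed, with 1 member higher (TRIM14), 1 lower (HERC5), and 1 pathway gene in each direction. IFI44L fell below the filter there and was not tested. Leaving out 1 library gave 485 to 761 changed rows, 1 to 2 members higher, 2 to 5 lower, 2 to 4 pathway genes higher and 1 to 2 lower. The fewest members were lower without vector replicate 2. IFI44L was not tested without any 1 circ_0005358 library, and without circ_0005358 replicate 1 the members higher were TRIM14 and OAS2. The cause of these shifts was not tested where fewer libraries or more rows do not account for it by construction.

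Same-numbered libraries of the groups had correlations of their deviations of 0.0644, 0.0481 and 0.0781, against -0.0537 to -0.0106 for other pairs. Each library correlated best with its own number, a hint from the data only, and the numbers were not taken to pair the libraries. With the replicate block, 259 rows changed, with 2 members higher, 2 lower (HERC5, ISG15), 2 pathway genes higher and 1 lower; DDX58 then had an adjusted p of 0.0594.

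Sign changes were as follows, as log2 fold changes, with the range over single libraries left out. OAS3 was -0.0059 rescaled to the same sum, -0.015 with quantile normalization, -0.11 with library weights and -0.15 without vector replicate 3 and circ_0005358 replicate 2, and ran from -0.17 to 0.35. IFIT2 was -0.13 without those libraries and ran from -0.078 to 0.20. The ranges were -0.19 to 0.17 for USP18, -0.93 to 0.045 for IFITM1 and IFITM2, -0.59 to 0.21 for CMPK2, -0.18 to 0.22 for SAMHD1, -0.057 to 0.051 for EIF2AK2 and -0.062 to 0.43 for ADAR. Read counts were not analysed here, so the counting error of low rows was not estimated.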
